A study of Mus musculus with 18 samples.

Results

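CD4 T cells under strong stimulation were given an antibody to the costimulatory receptor Ox40, and their RNA was set against that of cells given a control antibody. The comparison rests on 6 of the series' 18 libraries: 3 labelled anti-Ox40 and 3 labelled control Ig, all at the higher dose of stimulating beads. They were chosen by these labels alone, and every gene that passed a filter on low values entered the tests. The CD4 T cells came from spleen, and the donors were female NZB/W F1 mice, the lupus-prone cross of NZB and NZW, aged 21 to 27 weeks with proteinuria of 30 to 100 mg/dL. All 6 cultures held 250000 cells per well with 10 U/mL of IL-2 and beads carrying anti-CD3 and anti-CD28 at 1 bead per cell. They differed in the antibody, either anti-Ox40 IgG1 or an IgG1 isotype control, both at 25 µg/mL, and RNA was taken after 48 hours. The other 12 libraries, with 0.1 bead per cell (low beads) or none, entered the same model and give the antibody's effect at the other doses.

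Ox40, encoded by Tnfrsf4, is a receptor of the TNF receptor superfamily that appears on CD4 T cells after antigen receptor stimulation. It has no kinase of its own: when its ligand, encoded by Tnfsf4, gathers it into clusters, TRAF adaptor proteins bind its tail and activate the classical and alternative NF-kB pathways. It is known as a costimulatory receptor that supports survival, cytokine production and memory of CD4 cells, and the gene of its ligand is a known susceptibility gene for human lupus.

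Expression is given as nRPKM, the authors' normalised form of RPKM (reads scaled to gene length and sequencing depth), and always in the order of replicates 1, 2 and 3. A fold change is the difference of mean log2(nRPKM + 1) between anti-Ox40 and control Ig, with its standard error (SE), and it understates the change of genes with low values. Adjusted p-values come from limma with Benjamini-Hochberg adjustment over 13075 genes, and a gene with a value under 0.05 is called. Replicate numbers only name the libraries in accession order. The labels do not say whether replicates were separate mice or cultures, so a p-value reflects no more than how libraries varied within groups. That spread was estimated from all 18 libraries of the series, not only these 6. These are bulk samples, in which fewer cells of a type and less RNA per cell cannot be told apart.

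The 6 libraries were of similar depth: a gene of 1 kb with an nRPKM of 1 had an estimated 32.4 to 43.8 reads, and 11763 to 11873 genes reached an nRPKM of 1. Across genes, libraries of 1 group correlated at 0.9935 to 0.9947 and libraries of the 2 groups at 0.9838 to 0.992 (Pearson). The CD4 T cell label fitted the level of the markers, with Cd4 at 192, 191 and 197 nRPKM with control Ig and 179, 174 and 175 with anti-Ox40. Summed CD4 T cell markers were 1830 to 2030 with control Ig and 1560 to 1710 with anti-Ox40. Of 9 tested, 5 were called lower and 0 higher (55.6% called, against 26.0% of all genes), with a median of -0.22. Summed B cell markers were 5.20 to 14.0 and 5.20 to 8.08, with 0 of 9 called, myeloid markers 42.3 to 51.1 and 36.9 to 42.6 (1 of 14 called, lower), and NK cell markers 53.9 to 86.0 and 73.7 to 121 (0 of 4). Platelet markers were 43.3 to 52.4 and 22.6 to 31.2 (2 of 8 lower), and lung epithelium markers 35.2 to 129 and 32.2 to 58.3 (0 of 7). The NK cell sum was mostly the granzyme gene Gzma, at 80.2, 67.2 and 49.8 with control Ig and 69.6, 89.4 and 119 with anti-Ox40. The median change of the 4 tested NK cell markers was -0.18. The platelet sum was mostly Itgb3 and the myeloid sum mostly Ctss, so each sum follows mainly 1 gene. The 8 tested platelet markers changed by -0.81 to -0.08 (median -0.19), and Pf4 was called lower as well as Itgb3. Whether platelet content differed between the groups was not tested. Camp was at 0 in all 6 libraries. In all 6 groups of the series replicate 3 had the highest B cell marker score, and results were therefore also computed without the replicate 3 libraries, which leaves 2 per group. Whether libraries of the same number came from a source shared between groups was not tested. The model takes no account of such a source. A score of the nuclear RNAs Malat1 and Neat1 was 6.29 to 6.59 with control Ig and 5.84 to 6.0 with anti-Ox40. These ranges do not overlap. With this score as a covariate 2772 genes were called at high beads, and 2275 of them were among those called without it. With the B cell score as a covariate 3343 were called, 3255 of them shared with the fit without a covariate, and with the lung epithelium score 3157, of which 3067 were shared. The part of the myeloid, NK cell and platelet markers in the results was not tested.

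Anti-Ox40 at high beads changed many genes by small amounts. Of 13075 genes 3397 were called (26.0%), 1877 higher (14.4%) and 1520 lower (11.6%), and 2977 of the called genes (22.8% of those tested) lay within 0.5 of 0 on the log2 scale. Of the called genes 26 rose by more than 1 (0.199%) and 20 fell by more than 1 (0.153%), and the median over all genes was 0.004. In 5667 genes (43.3%) the 3 libraries of 1 group all lay above those of the other. Of the 3397 called genes 3258 were separated in this way and 139 overlapped, so separation adds little to a call. The largest increases and decreases named below were chosen among separated genes. At an unadjusted p under 0.05 there were 4864 genes. The number called was 2065 without anti-Ox40 replicate 1, 2331 to 3363 without each other library, and 1387 without the replicate 3 libraries. Centring each library on its median moved the split from 1877 higher and 1520 lower to 1610 and 1707.

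**Figure D1:**
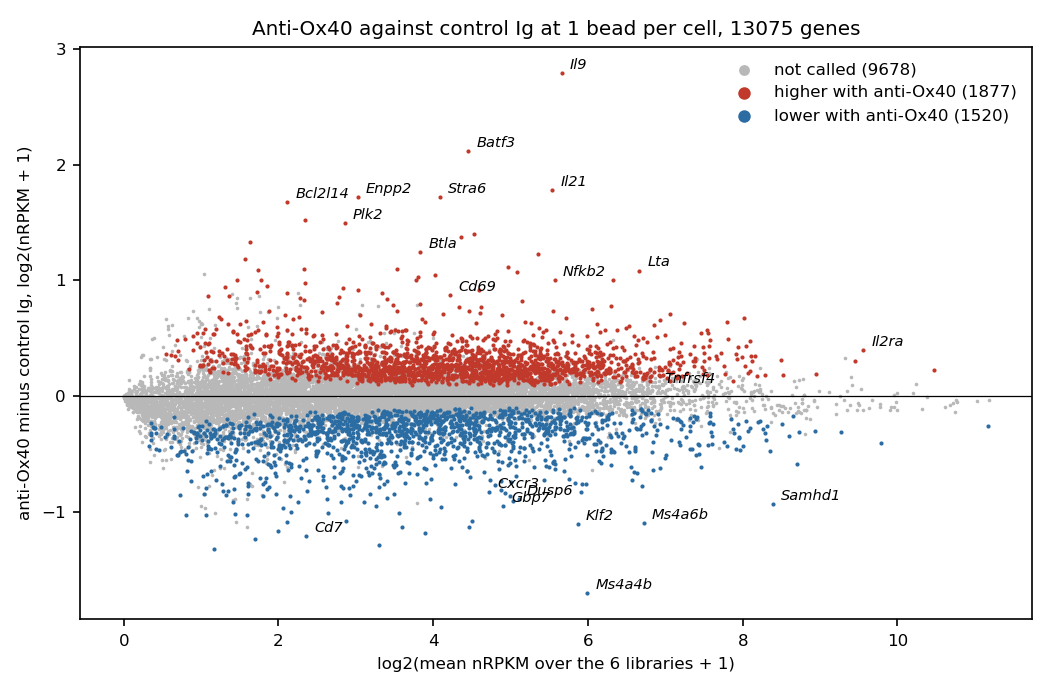
Each point is a gene, with the mean nRPKM of the 6 libraries at high beads on the x axis (log2) and the antibody effect on the y axis (log2). Red and blue mark the 1877 genes called higher and the 1520 called lower with anti-Ox40; Il9 lies highest at 2.79 and Ms4a4b lowest at -1.70.

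Tnfrsf4 itself did not pass the test. This receptor gene (chromosome 4, 156013595 to 156016613 on GRCm38) stood at 127, 103 and 111 nRPKM with control Ig and 126, 115 and 119 with anti-Ox40. The 2 groups overlapped (log2 fold change 0.08, SE 0.08, adjusted p = 0.505). Its ligand gene Tnfsf4 rose from 3.06, 2.47 and 2.51 to 4.93, 3.93 and 3.52 (0.47, SE 0.11, adjusted p = 0.00577), with every anti-Ox40 library above every control Ig library, at a low level throughout. In the list of Ox40, its ligand and the TRAF adaptors, 5 of 10 were higher and 1 lower, with a median of 0.16. This is 60% called, against 26.0% of all genes. Birc3, which encodes the ubiquitin ligase cIAP2 that works with TRAF2, rose from 35, 30.2 and 31.4 to 44.4, 44.8 and 43.3 (0.45, adjusted p = 0.000123). Traf6, an adaptor of the toll-like and IL-1 receptors as well as of TNF receptors, rose from 31.9, 29.5 and 28 to 41.8, 36.6 and 36.6 (0.35, adjusted p = 0.00146). Both genes were separated by group. Traf5, an adaptor that binds Ox40, was lower (-0.33, adjusted p = 0.0109), but its groups overlapped, and the call was lost without control Ig replicate 3 (adjusted p = 0.062) or anti-Ox40 replicate 1 (0.0626). The number higher in this list was 3 without control Ig replicate 2, control Ig replicate 3 or anti-Ox40 replicate 1, and 3 without the replicate 3 libraries.

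Among 19 other TNF receptors 3 were higher and 5 lower (42.1% called, against 26.0% of all genes, median 0.01). Cd27, a costimulatory receptor of naive and resting T cells, fell from 72.3, 78.2 and 85.6 to 51.9, 57.3 and 59.8 (-0.47, SE 0.06, adjusted p = 0.000123), and Tnfrsf14, which encodes HVEM, the binding partner of BTLA, from 18.8, 19 and 20.7 to 14.8, 16.4 and 14.9 (-0.33, adjusted p = 0.0014). All anti-Ox40 libraries lay below all control Ig libraries in both genes. Tnfrsf10b, the TRAIL death receptor, rose from 3.41, 2.95 and 2.96 to 5.94, 4.57 and 4.98 (0.58, adjusted p = 0.000201), while Tnfsf10, its ligand TRAIL, fell by 0.37 on the log2 scale (adjusted p = 0.00153). The costimulatory receptor genes Tnfrsf9 (4-1BB; -0.16, adjusted p = 0.504) and Tnfrsf18 (GITR; 0.01, adjusted p = 0.947) did not pass, and were named after their values were seen.

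Of 11 tested TNF family ligands 3 were higher and 4 lower (63.6% called, against 26.0% of all genes). Lta, which encodes lymphotoxin alpha, a secreted ligand of T cells (chromosome 17, 35203165 to 35205578), stood at 70.4, 70.1 and 50.9 nRPKM with control Ig and 162, 146 and 104 with anti-Ox40. The increase was wide, with every anti-Ox40 library above every control Ig library and replicate 3 the lowest in both groups (1.08, SE 0.14, adjusted p = 0.000101). Tnf rose only from 9.85, 10.04 and 10.1 to 11.9, 12.8 and 11.4 (0.24, adjusted p = 0.00246). Cd40lg, the ligand through which CD4 cells help B cells, fell from 10.7, 11.3 and 11.4 to 8.73, 9.22 and 7.62 (-0.35, adjusted p = 0.00265). These 2 small changes in opposite directions were each separated by group. Without the replicate 3 libraries, 2 ligands were higher and 2 lower.

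Genes of the NF-kB pathway were described with their promoters, since the kappaB motif that NF-kB proteins bind marks several of them. The 250 bases before 1 transcription start in RefSeq (GRCm38.p6) are shown for Nfkb2, which has 3 promoter entries, and for Tnfaip3, which has 2, both members that rose, on the gene's strand, with kappaB matches in capitals, as well as an AP-1 match (TGANTCA) and an E-box (CACGTG) in Tnfaip3.
Nfkb2, chr19:46304487-46304736, plus strand: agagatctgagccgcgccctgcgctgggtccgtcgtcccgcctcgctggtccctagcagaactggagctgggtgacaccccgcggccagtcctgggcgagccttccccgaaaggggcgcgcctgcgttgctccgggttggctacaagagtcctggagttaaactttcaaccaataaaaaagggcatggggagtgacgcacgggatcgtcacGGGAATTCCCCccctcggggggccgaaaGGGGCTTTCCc
Tnfaip3, chr10:19015411-19015660, minus strand: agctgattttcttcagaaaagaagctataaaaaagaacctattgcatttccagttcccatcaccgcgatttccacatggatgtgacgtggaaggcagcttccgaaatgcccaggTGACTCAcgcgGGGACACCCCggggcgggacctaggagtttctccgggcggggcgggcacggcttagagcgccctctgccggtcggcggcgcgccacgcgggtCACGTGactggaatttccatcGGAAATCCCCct
The kappaB motif was searched on both strands as a degenerate consensus. It was found 3 times in the window shown for Nfkb2, with 2 of the matches overlapping, and began 39, 38 and 11 bases before the start. In the window shown for Tnfaip3 matches began 125 and 12 bases before the start. The other Nfkb2 windows held 1 match each, 236 and 225 bases before their starts, and the other Tnfaip3 window held none. Of the 17 NF-kB list genes with a RefSeq promoter entry, 9 (52.9%) held the motif in at least 1 promoter, against 10.4% of 9204 tested genes, 8.23% of all 27025 genes, 11.3% of genes called higher and 11.8% of genes called lower. A match describes the sequence and does not show binding.

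Of 23 tested NF-kB subunits, inhibitors and feedback genes 10 were higher and 3 lower (56.5% called, against 26.0% of all genes, median 0.10). Nfkb2, the precursor of the p52 subunit of the alternative pathway, stood at 35.7, 29.2 and 27.1 nRPKM with control Ig and 70.3, 63.5 and 53.2 with anti-Ox40. Each anti-Ox40 library was well above the highest control Ig library (1.0, SE 0.11, adjusted p = 2.9e-05). Tnfaip3, the ubiquitin-editing inhibitor A20, stood at 33.4, 32.9 and 29.7 nRPKM with control Ig and 49.3, 46.4 and 49.9 with anti-Ox40 (0.59, SE 0.09, adjusted p = 0.00039), again without overlap. The inhibitor gene Nfkbie rose from 11.7, 10.5 and 11.3 to 16.2, 15.3 and 13.2 (0.38, adjusted p = 0.00147) and Chuk, the kinase IKK alpha of the alternative pathway, from 19.7, 18.4 and 18.6 to 25.3, 23.5 and 23.3 (0.33, adjusted p = 0.00056). Nfkbia, the inhibitor IkB alpha, and Relb, the partner of p52, also rose and were named after their values were seen (0.71 and 0.38, adjusted p = 0.00194 and 0.0208). The subunit genes Rela (0.02, adjusted p = 0.8) and Nfkb1 (-0.05, adjusted p = 0.469) did not pass. Tnip3, a partner of A20 that restrains NF-kB, lay outside this list and rose from 1.88, 1.28 and 1.24 to 4.12, 3.29 and 3.82 (0.95, adjusted p = 4.45e-05). Without the replicate 3 libraries 8 of the list were higher and 1 lower.

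Transcription factors that act at AP-1 sites were called in most cases. Of 14 tested BATF, IRF4 and AP-1 factors 8 were higher and 2 lower (71.4% called, against 26.0% of all genes, median 0.30). Batf3, a small basic leucine zipper factor (chromosome 1, 191098414 to 191108943), stood at 8.06, 6.61 and 6.98 nRPKM with control Ig and 38.7, 33.5 and 31.7 with anti-Ox40. Every anti-Ox40 library was several times as high as any control Ig library (2.12, SE 0.14, adjusted p = 8.8e-07). Irf4, the partner of BATF on composite sites, stood at 196, 164 and 159 nRPKM with control Ig and 291, 252 and 267 with anti-Ox40 (0.64, SE 0.12, adjusted p = 0.00114). Batf, already abundant, rose from 202, 170.1 and 185 to 256, 258 and 272 (0.50, adjusted p = 0.00034). Fosl1, a FOS family member, rose from 2.08, 1.75 and 1.94 to 3.76, 3.11 and 2.87 (0.54, adjusted p = 0.00056). In none of these 4 genes did the groups overlap. The count of higher genes in this list was 6 to 8 without each library and 7 without the replicate 3 libraries, while 0 or 1 was lower in each of these fits.

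Atf3, a factor induced by stress and amino acid shortage (chromosome 1, 191170296 to 191183333), stood at 15, 10.4 and 9.73 nRPKM with control Ig and 40.3, 32.2 and 25 with anti-Ox40. Replicate 1 was the highest and replicate 3 the lowest in both groups, and all 3 with anti-Ox40 exceeded all 3 with control Ig (1.40, SE 0.22, adjusted p = 0.000329). Its promoter is shown because it holds a match to the C/EBP-ATF response element (TGATGNAA, both strands; capitals), which ATF4 is known to bind. The match began 110 bases before the start, and 2.43% of tested genes held one.
Atf3, chr1:191183334-191183583, minus strand: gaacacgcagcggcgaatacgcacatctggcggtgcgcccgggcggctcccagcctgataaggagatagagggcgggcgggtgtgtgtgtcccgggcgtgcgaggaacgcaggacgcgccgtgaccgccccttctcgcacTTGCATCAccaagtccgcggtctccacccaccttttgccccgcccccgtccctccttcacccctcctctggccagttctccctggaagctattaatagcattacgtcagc

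Cytokine genes had the highest median change of the 38 gene lists. Of 20 tested cytokine genes of T cells 12 were higher and 1 lower (65% called, against 26.0% of all genes, median 0.53). Their summed level was 469 to 478 nRPKM with control Ig and 724 to 835 with anti-Ox40. For Il9 and Lif the promoter windows are shown because both held an AP-1 match (TGANTCA, in capitals), found in 5.04% of tested genes, 3.90% of genes called higher and 7.03% of genes called lower. In Lif a kappaB match is capitalised too.
Il9, chr13:56482258-56482507, minus strand: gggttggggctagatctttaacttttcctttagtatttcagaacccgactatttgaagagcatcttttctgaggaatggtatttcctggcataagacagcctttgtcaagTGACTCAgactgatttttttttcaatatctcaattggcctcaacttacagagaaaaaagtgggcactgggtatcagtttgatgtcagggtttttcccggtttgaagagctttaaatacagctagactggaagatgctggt
Lif, chr11:4257318-4257567, plus strand: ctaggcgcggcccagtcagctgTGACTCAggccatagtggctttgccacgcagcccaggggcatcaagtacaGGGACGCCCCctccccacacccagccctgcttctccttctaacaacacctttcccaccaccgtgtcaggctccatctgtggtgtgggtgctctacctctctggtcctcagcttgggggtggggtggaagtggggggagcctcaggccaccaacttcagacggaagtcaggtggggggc
The AP-1 match of Il9 began 140 bases before the start. In Lif the AP-1 and kappaB matches began 228 and 178 bases before it. Of 17 cytokine genes with a RefSeq promoter entry, 3 held an AP-1 match (17.6%), of which Il9 and Lif rose and Il16 fell, and 6 a kappaB match (35.3%).

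Il9, a growth factor of mast cells made by a subset of helper T cells (chromosome 13, 56479277 to 56482257), stood at 15.6, 11.9 and 6.27 nRPKM with control Ig and 127, 95.3 and 41 with anti-Ox40. Replicate 3 was the lowest in both groups, and the lowest anti-Ox40 library was above the highest control Ig library (2.79, SE 0.41, adjusted p = 0.000253). Il21, the cytokine of follicular helper and Th17 cells that drives B cells (chromosome 3, 37222759 to 37232636), stood at 24.6, 21.5 and 14.8 nRPKM with control Ig and 74.4, 70.6 and 67.2 with anti-Ox40. The 3 anti-Ox40 libraries were close together and far above the control Ig range (1.78, SE 0.18, adjusted p = 1.63e-05). Lif, a cytokine of the IL-6 family, stood at 20.3, 20.9 and 21.4 nRPKM with control Ig and 43, 42.4 and 50.01 with anti-Ox40, with a narrow spread in each group (1.07, SE 0.09, adjusted p = 3.67e-06). Il24, of the IL-10 family, stood at 45.9, 55.1 and 56.7 nRPKM with control Ig and 98.4, 107 and 112 with anti-Ox40 (1.0, SE 0.22, adjusted p = 0.00336; 0.0514 without the replicate 3 libraries, where the fold change was 1.01).

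Cytokines of type 2 helper cells rose as well. Il13 stood at 22.6, 22.8 and 24.9 nRPKM with control Ig and 47.7, 59 and 62.6 with anti-Ox40, and Il4, which directs type 2 differentiation and class switching, at 17.1, 18.3 and 16.6 nRPKM with control Ig and 29.1, 31.9 and 26.6 with anti-Ox40. No library of 1 group fell within the range of the other in either gene (1.22, SE 0.23, adjusted p = 0.00119 for Il13 and 0.72, SE 0.13, adjusted p = 0.000939 for Il4). For Il13 the adjusted p was 0.0506 without the replicate 3 libraries. Il5, the eosinophil growth factor, stood at 0.808, 0.922 and 0.717 nRPKM with control Ig and 3.06, 3.05 and 3.25 with anti-Ox40, a low level that rose in all 3 libraries (1.18, SE 0.14, adjusted p = 4.45e-05). With a pseudocount of 0.1 its fold change was 1.82. Of 14 tested Th2 genes 5 were higher and 0 lower (35.7% called, against 26.0% of all genes, median 0.09). Without the replicate 3 libraries 2 were higher. Gata3, the type 2 master regulator, did not pass (0.16, adjusted p = 0.318) and was named after its values were seen.

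Il2 and Csf2, the genes of the T cell growth factor IL-2 and of GM-CSF, were low. They were named after their values were seen. Il2 stood at 0.577, 0.341 and 0.470 nRPKM with control Ig and 2.02, 2.63 and 0.701 with anti-Ox40, with replicate 3 of anti-Ox40 only just above the control Ig range (0.86, SE 0.22, adjusted p = 0.00878). Csf2 rose from 0.784, 0.913 and 0.764 to 2.76, 3.29 and 1.99 (1.0, adjusted p = 0.00171). Il16, a chemoattractant that is made constitutively by resting T cells, was the only cytokine gene of the list to fall, from 40.3, 43.2 and 44.1 to 29.8, 32.8 and 31.9 (-0.42, SE 0.05, adjusted p = 3.98e-05). With the nuclear RNA score as a covariate 11 of the list were higher and 3 lower. Ifng (-0.09, adjusted p = 0.823) and Il10 (-0.48, adjusted p = 0.209), also named after their values were seen, did not pass, and their groups overlapped. Without the replicate 3 libraries 9 cytokine genes were higher and 1 lower, and without control Ig replicate 2 there were 2 lower.

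**Figure D2:**
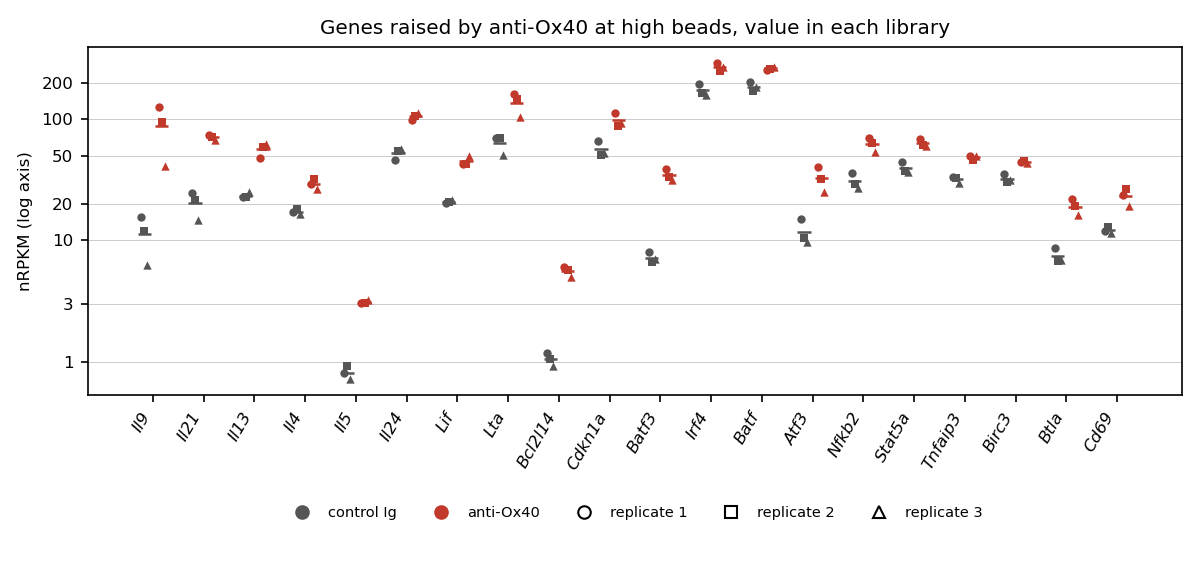
Points are nRPKM values (log axis) of 20 genes that rose with anti-Ox40, in each of the 6 libraries at high beads, with the group mean as a bar and replicates 1, 2 and 3 as circle, square and triangle. In each gene the red anti-Ox40 points lie above the grey control Ig points, from Il5 and Bcl2l14 near 1 in control Ig to Irf4 and Batf near 200. The largest increases were chosen among separated genes, so their separation is no added evidence.

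Genes of type 1 helper cells were called lower more often than higher. Of 15 tested Th1 genes 1 was higher and 5 were lower (40% called, against 26.0% of all genes), with a median of -0.23. Stat4, the transducer of IL-12 signals, stood at 24.4, 26.2 and 29 nRPKM with control Ig and 15.8, 17.2 and 14.9 with anti-Ox40. The groups were well apart (-0.70, SE 0.06, adjusted p = 7.08e-06). Tbx21, which encodes T-bet, the master regulator of type 1 cells, stood at 35.7, 34.1 and 38.2 nRPKM with control Ig and 26.1, 27.9 and 26.6 with anti-Ox40 (-0.41, SE 0.07, adjusted p = 0.000759), lower in all 3 libraries. Cxcr3, the chemokine receptor of type 1 cells, stood at 32.5, 32.3 and 33.6 nRPKM with control Ig and 17.9, 18.9 and 17.3 with anti-Ox40, with little spread between replicates and a wide gap between the groups (-0.83, SE 0.16, adjusted p = 0.00185; 0.0726 without the replicate 3 libraries). Gzmb, the cytotoxic protease granzyme B, fell from 200.4, 179 and 179 to 119, 149 and 140.0 (-0.45, adjusted p = 0.0121), a call lost without anti-Ox40 replicate 1 (adjusted p = 0.0738) and without the replicate 3 libraries (0.0671). In the latter fit 2 of the 15 genes were lower and 0 higher, and without control Ig replicate 1 there were 2 higher.

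Follicular helper genes split. Of 15 tested 3 were higher and 6 lower (60% called, against 26.0% of all genes), and their median was -0.04. Beside Il21, Btla rose, an inhibitory receptor on follicular helper and resting lymphocytes (chromosome 16, 45223705 to 45252895), from 8.69, 6.73 and 6.88 to 21.9, 19.1 and 16.1. The lowest anti-Ox40 library was well above the highest control Ig library (1.25, SE 0.11, adjusted p = 7.08e-06). Cd200, a surface ligand that restrains myeloid cells, stood at 23.9, 15.2 and 17 nRPKM with control Ig and 51.2, 40.9 and 32.8 with anti-Ox40 (1.12, SE 0.21, adjusted p = 0.00117), separated by group but wide in spread. Bcl6, the master regulator of follicular helper cells, fell from 2.41, 2.45 and 2.94 to 1.1, 1.51 and 1.39 (-0.63, SE 0.08, adjusted p = 0.000135), and Tox from 3.57, 2.8 and 3.99 to 2.04, 1.55 and 1.56 (-0.71, adjusted p = 0.00245; 0.113 without the replicate 3 libraries). The number lower was 3 without control Ig replicate 1, control Ig replicate 3, anti-Ox40 replicate 1 or anti-Ox40 replicate 2, 3 with the nuclear RNA score as a covariate and 2 without the replicate 3 libraries.

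Inhibitory receptors were split. Of 10 tested inhibitory receptors and ligands 3 were higher and 5 lower (80% called, against 26.0% of all genes, median -0.37). Cd96, a receptor for the adhesion ligand CD155, fell from 15.7, 16.3 and 18.7 to 10.8, 10.6 and 10.3, with a tight cluster in each group (-0.62, SE 0.06, adjusted p = 8.1e-06). Entpd1, the ATP-degrading enzyme CD39, fell from 8.32, 8.18 and 9.94 to 4.38, 4.33 and 5.52 (-0.77, SE 0.11, adjusted p = 0.000193), and Ctla4, the CD28 competitor, from 176, 146 and 177 to 122, 115 and 136 (-0.42, adjusted p = 0.00744; 0.0662 without the replicate 3 libraries). Pdcd1lg2, which encodes the PD-1 ligand PD-L2, rose from 5.49, 4.43 and 4.69 to 8.93, 7.64 and 7.22 (0.61, adjusted p = 0.000467). The lower members numbered 3 once control replicate 1 or Ox40 replicate 2 was left out, and 2 without the replicate 3 libraries. Of 17 tested regulatory T cell genes 2 were higher and 3 lower (29.4% called, near the 26.0% of all genes). Foxp3, their defining factor, overlapped between groups at 42.7, 24.9 and 35.7 nRPKM with control Ig and 31.7, 21.3 and 24.5 with anti-Ox40 (-0.38, adjusted p = 0.17) and was named after its values were seen. Without control Ig replicate 2, which had the lowest Foxp3 value of its group, 7 of this list were lower, and without the replicate 3 libraries 1 was. The number higher was 1 once control replicate 1 or 2 or Ox40 replicate 1 or 3 was left out, and with the nuclear RNA score as a covariate 1 was higher and 5 lower.

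The IL-2 receptor list held 7 higher and 4 lower of 18 tested (61.1% called, against 26.0% of all genes). Il2ra, the high-affinity chain CD25, stood at 697, 598 and 655 nRPKM with control Ig and 865, 807 and 895 with anti-Ox40, and each anti-Ox40 library exceeded each control Ig library (0.40, SE 0.07, adjusted p = 0.00129). Stat5a, the transducer of its signal, rose from 44.2, 37.7 and 36.8 to 68.9, 61.7 and 59.9 (0.67, SE 0.08, adjusted p = 4.9e-05). Il2rb, the shared beta chain, fell by 0.31 on the log2 scale (adjusted p = 0.0112) and was named after its values were seen. The lower members numbered 2 once control replicate 3 or Ox40 replicate 1 was left out, and 1 without the replicate 3 libraries.

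Surface molecules of activated T cells were mixed, with 7 of 18 higher and 3 lower (55.6% called). Of all genes 26.0% were called, 14.4% higher and 11.6% lower. Cd69, an early activation antigen that retains lymphocytes in tissue by removing the receptor S1PR1 from the surface, stood at 12, 12.9 and 11.4 nRPKM with control Ig and 23.7, 26.6 and 19.2 with anti-Ox40. All 3 anti-Ox40 values were clear of the control Ig range (0.88, SE 0.09, adjusted p = 1.63e-05). Slamf1, a homotypic adhesion receptor, stood at 15, 17 and 14.9 nRPKM with control Ig and 32.9, 33.2 and 25.8 with anti-Ox40 (0.92, SE 0.10, adjusted p = 2.19e-05), likewise without overlap. The transferrin receptor gene Tfrc rose from 154, 130.2 and 130.0 to 191, 171 and 172 (0.37, adjusted p = 0.000511). Itgal, the integrin chain of LFA-1, fell from 150.2, 149 and 153 to 113, 116 and 118 (-0.38, SE 0.05, adjusted p = 0.000101). Without the replicate 3 libraries 7 were higher and 1 lower.

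Genes of naive and quiescent T cells were lower or not called. Of 23 tested 14 were lower (60.9%, against 11.6% of all genes) and 0 higher, with a median of -0.28. The number lower was 11 to 15 without each library. Klf2, a factor that keeps T cells quiescent and recirculating (chromosome 8, 72319062 to 72321654), stood at 63.2, 91.3 and 81.7 nRPKM with control Ig and 28.8, 43.4 and 36 with anti-Ox40. Replicate 1 was lowest and replicate 2 highest in both groups, and the groups did not overlap (-1.11, SE 0.13, adjusted p = 5.83e-05). S1pr1, a KLF2 target that lets T cells leave lymphoid tissue and was named after its values were seen, stood at 32.3, 49.1 and 43.8 nRPKM with control Ig and 17.9, 27.1 and 20.4 with anti-Ox40 (-0.91, SE 0.13, adjusted p = 0.000253), in the same order of libraries. Foxp1, a quiescence factor, fell from 20.9, 22.2 and 22.4 to 15, 14.9 and 14.2 (-0.54, adjusted p = 2.77e-05), and Pdcd4, an inhibitor of translation, from 76.7, 88 and 91.5 to 54.3, 63.2 and 60.7 (-0.52, adjusted p = 0.000115). The diacylglycerol kinases Dgka and Dgkz, brakes on antigen receptor signals, fell by 0.62 and 0.27 on the log2 scale (adjusted p = 5.42e-05 and 8.84e-05). Naive homing and survival genes did not all fall: Ccr7 (-0.07, adjusted p = 0.69), Il7r (-0.04, adjusted p = 0.844) and Lef1 (0.17, adjusted p = 0.268), named after their values were seen, did not pass. Without the replicate 3 libraries 11 of the list were lower.

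Many genes of the T cell receptor complex were lower at the RNA level. Of 20 genes of the complex and its proximal kinases 10 were lower and 1 higher (55% called, against 26.0% of all genes, median -0.18). Cd3e stood at 205, 217 and 230.0 nRPKM with control Ig and 159, 176 and 177 with anti-Ox40. Cd3g stood at 267, 290.3 and 306 nRPKM with control Ig and 182, 220.3 and 223 with anti-Ox40. Neither of these signalling chains of the complex overlapped between groups (-0.35, SE 0.05, adjusted p = 0.000338 for Cd3e and -0.47, SE 0.08, adjusted p = 0.000462 for Cd3g). Cd3d fell by 0.40 on the log2 scale (adjusted p = 0.000311). Ptpn22, a phosphatase that dampens receptor signals, stood at 29.5, 28.6 and 31.2 nRPKM with control Ig and 17.8, 18.4 and 19.3 with anti-Ox40 (-0.66, SE 0.06, adjusted p = 1.52e-05). Lcp2, the adaptor SLP-76, was the member that rose, from 122, 119 and 132 to 166, 161 and 159 (0.38, SE 0.05, adjusted p = 0.000143). Cd4 (-0.13, adjusted p = 0.0829) and Lck (-0.05, adjusted p = 0.393), named after their values were seen, did not pass. Without the replicate 3 libraries 6 of the 20 were lower and 1 higher.

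**Figure D3:**
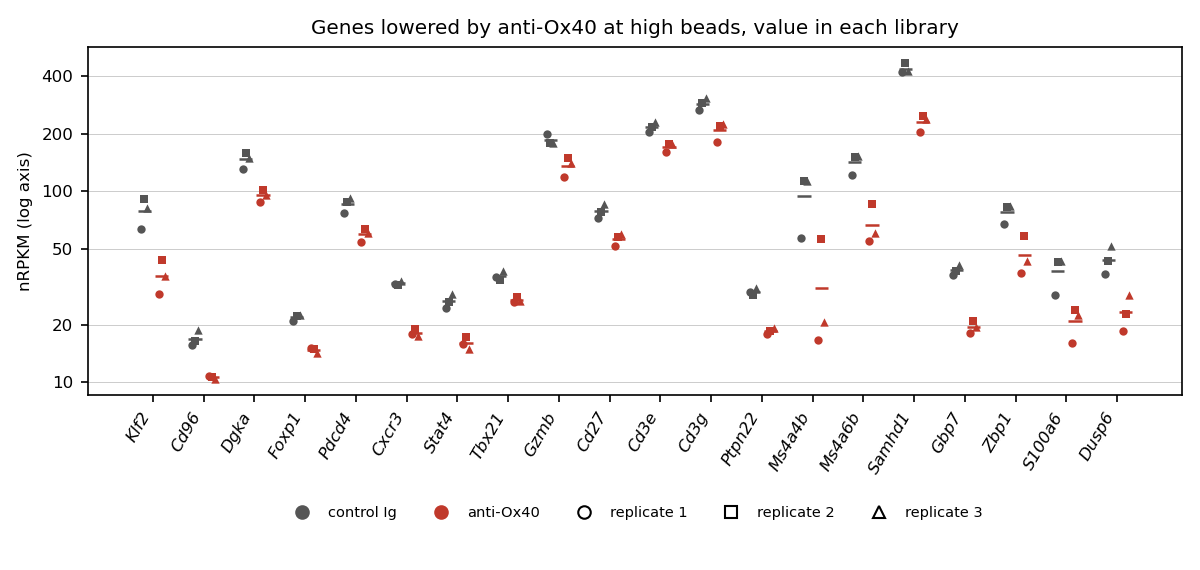
Points are nRPKM values (log axis) of 20 genes that fell with anti-Ox40, in each of the 6 libraries at high beads, with the group mean as a bar and replicates 1, 2 and 3 as circle, square and triangle. The red anti-Ox40 points lie below the grey control Ig points in each gene, most widely spread in Ms4a4b, where anti-Ox40 replicate 2 at 56.0 lies just under control Ig replicate 1 at 56.6. The largest decreases were likewise chosen among separated genes.

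Among 16 feedback genes of receptor signalling 3 were called higher and 3 lower (37.5% called, against 26.0% of all genes). Dusp6, the ERK phosphatase, stood at 36.6, 42.9 and 51.4 nRPKM with control Ig and 18.5, 22.7 and 28.4 with anti-Ox40. Its groups were separated, with replicate 3 the highest in each (-0.89, SE 0.14, adjusted p = 0.000468). Nfatc1, a calcium-driven factor, fell from 33.4, 33.5 and 37.2 to 26.5, 26 and 26.5 (-0.38, adjusted p = 0.000201). Nr4a3, an immediate early nuclear receptor, rose from 2.81, 2.56 and 2.19 to 5.61, 4.81 and 3.48 (0.66, SE 0.12, adjusted p = 0.000778). Without control Ig replicate 3, 5 members were higher.

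Of 6 tested survival genes of the BCL2 family 1 was higher and 1 lower (33.3% called, against 26.0% of all genes), and 0 were called with the nuclear RNA score as a covariate. Bcl2l1, which encodes BCL-XL, rose from 23.9, 20.4 and 21.2 to 31.2, 29.5 and 25.9 (0.38, SE 0.10, adjusted p = 0.009), a call lost without anti-Ox40 replicate 1 (adjusted p = 0.0533), with the nuclear RNA score as a covariate (0.0707) and without the replicate 3 libraries (0.0754). Bcl2 (-0.10, adjusted p = 0.471) and Mcl1 (-0.08, adjusted p = 0.494), named after their values were seen, did not pass. Of 9 pro-apoptotic members 2 were higher and 2 lower (44.4% called, against 26.0% of all genes). There was 1 in each direction without control Ig replicate 2 or 3, and 1 higher without anti-Ox40 replicate 1. Bcl2l14, which encodes the family member BCL-G (chromosome 6, 134396329 to 134438724), stood at 1.18, 1.06 and 0.916 nRPKM with control Ig and 6.07, 5.68 and 4.96 with anti-Ox40. It had the smallest adjusted p of all named genes, and its lowest anti-Ox40 library was more than 4 times its highest control Ig library (1.68, SE 0.08, adjusted p = 7.79e-09). Bcl2l11, which encodes BIM, the main killer of T cells after a response, fell from 14.1, 16.7 and 16 to 9.32, 10.3 and 12.4 (-0.51, SE 0.09, adjusted p = 0.00112), without overlap.

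Targets of the p53 tumour suppressor were called in 13 of 16 cases (81.2%, against 26.0% of all genes). Of these 10 were higher and 3 lower, and the median of the list was 0.28. Cdkn1a, the cyclin-dependent kinase inhibitor p21, stood at 66.2, 51.1 and 52.9 nRPKM with control Ig and 113, 87.9 and 93.7 with anti-Ox40, with the anti-Ox40 libraries well clear (0.78, SE 0.12, adjusted p = 0.000329). Mdm2, the ligase that limits p53, rose from 34.9, 33.9 and 35.2 to 44.5, 41.7 and 39.9 (0.27, SE 0.04, adjusted p = 0.000206), and Sesn2, a stress sensor, from 20.6, 15.4 and 16.6 to 31.4, 26 and 25.3 (0.63, adjusted p = 0.00027). Sesn1 fell from 9.63, 12.9 and 12 to 6.56, 8.15 and 7.29 (-0.58, adjusted p = 0.0014) and the antiproliferative gene Btg2 from 21.2, 22.8 and 25.3 to 15, 16.8 and 18.9 (-0.43, adjusted p = 0.0021). Calls in this list depended on single libraries: leaving out control Ig replicate 2 left 6 higher, control Ig replicate 3 left 5, and anti-Ox40 replicate 1 left 4. Over all genes the number higher went from 1877 to 1251, 1315 and 1120 in these fits. The median of the list was 0.23, 0.26 and 0.21 in them. With the nuclear RNA score as a covariate 4 of the list were higher, and 4 without the replicate 3 libraries. Plk2, a polo-like kinase of the stress response outside this list, stood at 3.1, 2.91 and 2.29 nRPKM with control Ig and 9.59, 7.8 and 11.8 with anti-Ox40 (1.5, SE 0.13, adjusted p = 3.67e-06), and all 3 anti-Ox40 values exceeded the control Ig range.

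Cell division genes did not pass the test at this dose. Of 32 DNA replication genes 0 were called in either direction (limma, median 0.04, range -0.11 to 0.18), with 2 at an unadjusted p under 0.05. Of 27 mitosis genes 0 were called (limma, median -0.06, range -0.19 to 0.12), with 0 at an unadjusted p under 0.05. In the fit to only the 2 groups 5 replication genes were higher. Among 18 G1 cyclins, kinases and inhibitors 3 were higher and 3 lower (33.3% called, against 26.0% of all genes). Ccnd2, cyclin D2, rose from 111, 108 and 108 to 137, 130.2 and 124 (0.25, SE 0.04, adjusted p = 0.000468). E2f2, an E2F factor, fell from 29.7, 33.5 and 34.7 to 21.2, 25.6 and 25.6 (-0.42, SE 0.07, adjusted p = 0.000854), and Cdkn1b, the inhibitor p27, from 31.2, 37.7 and 38.4 to 26.2, 29.5 and 30.2 (-0.31, adjusted p = 0.00335; 0.0724 without the replicate 3 libraries).

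Of the biosynthetic lists, ribosome biogenesis had the largest share of called members of the 38 lists. Here 23 of 25 were higher (92.0%, against 14.4% of all genes) and 0 lower, with a median of 0.36. Nolc1, a nucleolar scaffold, stood at 59.4, 56.5 and 54.4 nRPKM with control Ig and 93.8, 84 and 74.2 with anti-Ox40. Gnl3, the nucleolar GTPase nucleostemin, stood at 46.9, 43.3 and 42.6 nRPKM with control Ig and 70.5, 65.7 and 56.9 with anti-Ox40. In both the groups were separated and replicate 1 was the highest (0.55, SE 0.09, adjusted p = 0.000333 for Nolc1 and 0.53, SE 0.09, adjusted p = 0.000472 for Gnl3). Between 21 and 23 members were higher without each library, 22 or 23 under other scalings, 19 with the nuclear RNA score as a covariate and 16 without the replicate 3 libraries. Myc, the factor that drives growth and ribosome production, rose from 115, 115 and 110.3 to 167, 148 and 139 (0.41, SE 0.07, adjusted p = 0.000731), and the spermidine synthase gene Srm from 57, 51.1 and 52.4 to 95.1, 82 and 73.1 (0.62, adjusted p = 0.000462). In the MYC and polyamine list 6 of 13 were higher and 1 lower (53.8% called, against 26.0% of all genes). The lower member was the MYC antagonist Mxd4 (-0.45, adjusted p = 0.00191). Without anti-Ox40 replicate 3, 2 of this list were lower, and with the nuclear RNA score as a covariate 4 were higher and 2 lower.

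In the list of ATF4, amino acid and one-carbon genes 20 of 24 were higher (83.3%, against 14.4% of all genes) and 0 lower (median 0.41). Whether ATF4 drives these genes here was not tested. Atf4 itself stood at 247, 209.6 and 225 nRPKM with control Ig and 340.1, 301 and 306 with anti-Ox40, and each anti-Ox40 library exceeded each control Ig library (0.47, SE 0.07, adjusted p = 0.000176). Cth, which makes cysteine from cystathionine, rose most, from 14.1, 8.54 and 9.02 to 34, 25.1 and 26.4 (1.37, SE 0.14, adjusted p = 1.8e-05). Mthfd2, a mitochondrial folate enzyme, stood at 91.8, 82.9 and 83.8 nRPKM with control Ig and 128, 120.2 and 118 with anti-Ox40 (0.50, SE 0.06, adjusted p = 6.4e-05). Slc7a5, the leucine transporter, stood at 167, 143 and 143 nRPKM with control Ig and 238, 213 and 212 with anti-Ox40 (0.54, SE 0.08, adjusted p = 0.000173). Neither gene overlapped between groups, and replicate 1 was highest in each group. The count higher was 20 to 22 without each library and 19 without the replicate 3 libraries. The response element shown for Atf3 was found in the promoter windows of 4 of 21 genes of this list with an entry (19.0%; Chac1, Asns, Slc7a11 and Pycr1), against 2.43% of tested genes.

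Nucleotide synthesis and the pentose phosphate pathway had 10 of 19 higher (52.6%, against 14.4% of all genes) and 0 lower (median 0.21). Prps1, which makes the ribose donor of nucleotides, stood at 36.9, 33.4 and 31.7 nRPKM with control Ig and 63.1, 58.6 and 50.1 with anti-Ox40, with no overlap (0.73, SE 0.10, adjusted p = 0.000153). Ctps, CTP synthase, rose from 16.7, 15.1 and 14.8 to 22.7, 22.3 and 21 (0.48, adjusted p = 0.00122). With the nuclear RNA score as a covariate and without the replicate 3 libraries 6 were higher. Cholesterol and fatty acid synthesis had 13 of 26 higher (50%, against 14.4% of all genes) and 0 lower (median 0.21). Fasn, fatty acid synthase, rose from 68.3, 70.4 and 62 to 88, 81.1 and 84.3 (0.33, SE 0.06, adjusted p = 0.00061) and Cyp51, of the cholesterol pathway, from 38.1, 37.3 and 42.5 to 48.4, 46.8 and 50.03 (0.30, adjusted p = 0.00487). The number higher was 8 without control Ig replicate 1 or control Ig replicate 2, 6 without anti-Ox40 replicate 3, 6 with the nuclear RNA score as a covariate and 4 without the replicate 3 libraries. Endoplasmic reticulum chaperones had 9 of 20 higher (45%, against 14.4% of all genes) and 0 lower. Hspa5, the chaperone BiP, rose from 256, 247 and 244 to 311, 314 and 295 (0.30, SE 0.05, adjusted p = 0.000808). For these chaperones 5 were higher without control Ig replicate 2, control Ig replicate 3, anti-Ox40 replicate 1 or anti-Ox40 replicate 2, and 3 without the replicate 3 libraries. With the nuclear RNA score as a covariate 3 were higher and 2 lower.

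Called shares in glycolysis, the hypoxia response and respiration were near or below those of all genes. Of 21 glycolysis genes 4 were higher (19.0%, near the 14.4% of all genes). Hk2, hexokinase 2, stood at 33.7, 35.8 and 33.2 nRPKM with control Ig and 53.5, 48.9 and 51.8 with anti-Ox40 (0.57, SE 0.08, adjusted p = 0.000138), separated by group. Slc2a1, the glucose transporter GLUT1, differed by 0.18 (adjusted p = 0.0416), a call that was lost on leaving out any library but anti-Ox40 replicate 2 (adjusted p 0.0701 to 0.136). In the glycolysis list 2 were higher with the nuclear RNA score as a covariate and without control Ig replicate 1, control Ig replicate 2, anti-Ox40 replicate 1 or anti-Ox40 replicate 3. Of 18 targets of the hypoxia-inducible factor 4 were higher and 1 lower (27.8% called, against 26.0% of all genes), with 2 lower once control replicate 1 or Ox40 replicate 3 was left out. P4ha2, a collagen prolyl hydroxylase, stood at 2.15, 2.63 and 2.47 nRPKM with control Ig and 5.22, 5.47 and 6.47 with anti-Ox40, and Ero1l, an oxidase of protein folding, at 48.3, 46.1 and 50.3 nRPKM with control Ig and 80.4, 74.6 and 91 with anti-Ox40. In both every anti-Ox40 library lay above every control Ig library (0.97, SE 0.08, adjusted p = 3.26e-06 for P4ha2 and 0.75, SE 0.07, adjusted p = 1.41e-05 for Ero1l). Of 24 oxidative phosphorylation genes 2 were higher (8.33%) and 0 lower, and 1 was higher without each library but control Ig replicate 1. With the nuclear RNA score as a covariate 1 was higher and 2 lower.

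**Figure D4:**
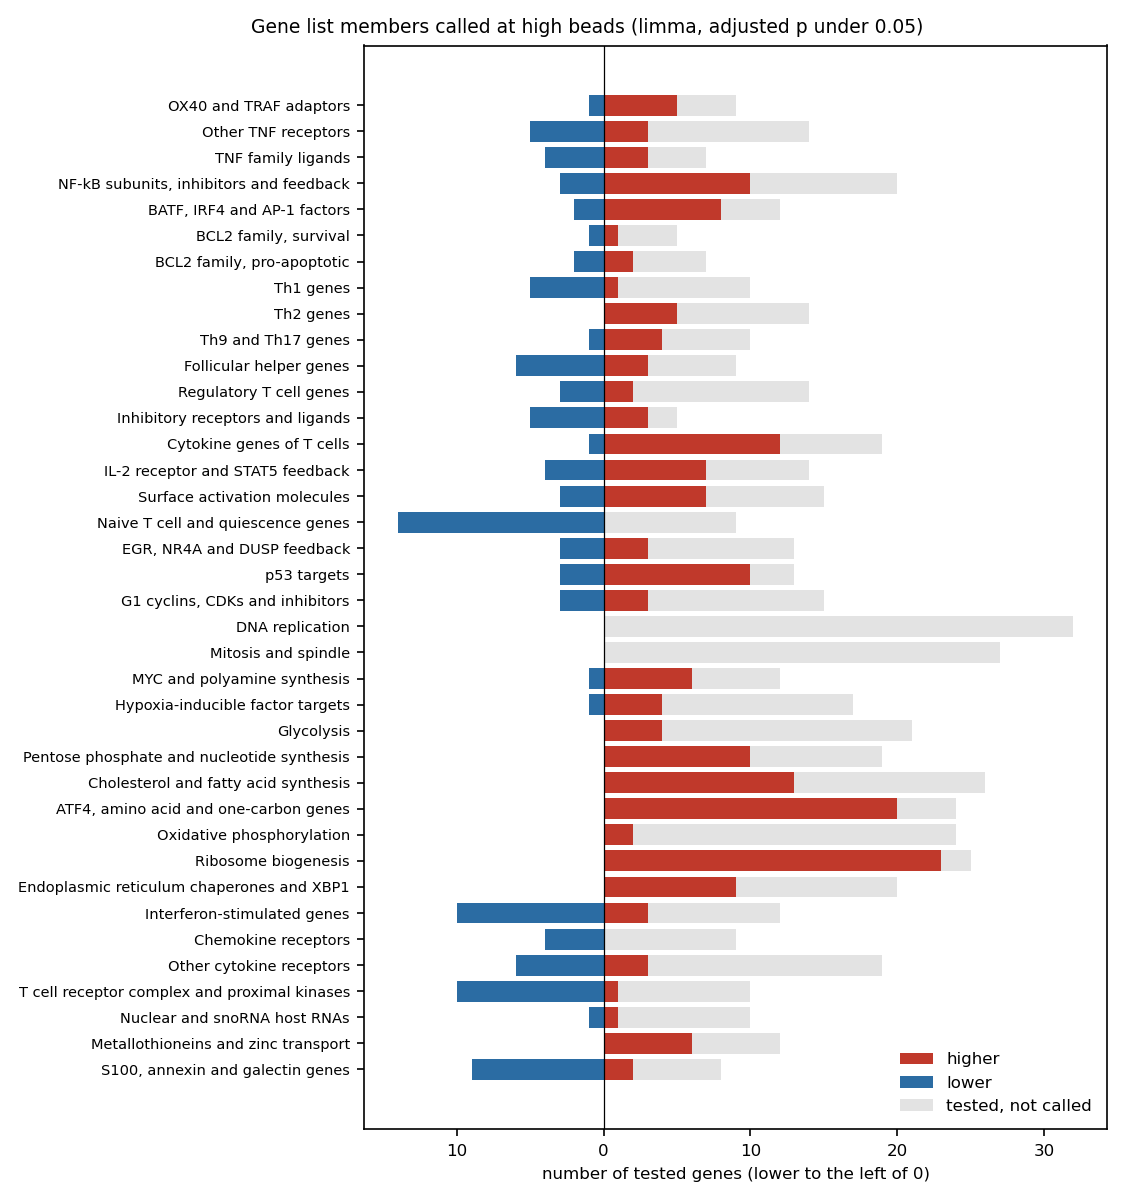
Bars count the tested members of each of the 38 gene lists that were called higher (red, right of 0), called lower (blue, left of 0) or not called (grey) with anti-Ox40 at high beads. Ribosome biogenesis (23 of 25) and the ATF4 list (20 of 24) extend farthest to the right in red, naive T cell and quiescence genes (14 of 23) farthest to the left, and DNA replication and mitosis have no called member.

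Interferon-stimulated genes were lower in 10 of 22 cases and higher in 3 (59.1% called, against 26.0% of all genes), with a median of -0.14. The 3 higher genes were Isg15, Oasl1 and Bst2. Bst2 rose from 68.3, 64.4 and 63.3 to 77.9, 84.1 and 74.6 (0.27, adjusted p = 0.00712). Zbp1, a nucleic acid sensor, stood at 67.6, 82.3 and 83.6 nRPKM with control Ig and 37.4, 58.3 and 43 with anti-Ox40, separated by group (-0.76, SE 0.13, adjusted p = 0.000808). Ifit2 fell from 7.8, 8.23 and 8.24 to 5.92, 6.76 and 6.05 (-0.33, SE 0.05, adjusted p = 0.000347). The lower members numbered 5 once control replicate 2 or Ox40 replicate 1 was left out, 6 once control replicate 3 or Ox40 replicate 3 was left out, and 3 without the replicate 3 libraries. The higher members numbered 1 once control replicate 3 or Ox40 replicate 2 was left out and with the nuclear RNA score as a covariate. Among the largest decreases were further genes outside this list. Gbp7, a guanylate-binding protein (chromosome 3, 142530336 to 142550151), stood at 36.5, 38.2 and 40.9 nRPKM with control Ig and 18, 21 and 19.4 with anti-Ox40 (-0.95, SE 0.08, adjusted p = 3.67e-06). Iigp1, an immunity-related GTPase, stood at 30.5, 27.2 and 31.7 nRPKM with control Ig and 13.4, 15.9 and 11.6 with anti-Ox40 (-1.08, SE 0.17, adjusted p = 0.000322). In both, the anti-Ox40 libraries were well below the control Ig range. Samhd1, which degrades deoxynucleotides (chromosome 2, 157097534 to 157135096), fell from 422, 470.4 and 425 to 205, 247 and 239 (-0.93, SE 0.07, adjusted p = 3.26e-06). The PYHIN family members Mndal and Pyhin1 fell by 1.02 and 0.96 on the log2 scale (adjusted p = 0.000962 and 7.3e-05; 0.0558 without the replicate 3 libraries for Mndal). Of the interferon receptor genes Ifnar1 fell from 15.6, 16.9 and 17.2 to 12.5, 13.4 and 12.3 (-0.35, SE 0.04, adjusted p = 5.62e-05) and Ifngr1 from 89.5, 90.4 and 88.7 to 62, 67 and 66.4 (-0.45, SE 0.07, adjusted p = 0.000309), both without overlap.

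Neighbouring Ms4a genes on chromosome 19, which encode membrane-spanning proteins, fell together. Ms4a4b, a member expressed in T cells (chromosome 19, 11443558 to 11463549), stood at 56.6, 113 and 113 nRPKM with control Ig and 16.6, 56 and 20.6 with anti-Ox40 and had the largest decrease of the named genes. Replicate 2 of anti-Ox40 lay just below replicate 1 of control Ig, and the other anti-Ox40 libraries far below (-1.70, SE 0.32, adjusted p = 0.0013; -1.35 and adjusted p = 0.0905 without the replicate 3 libraries). Ms4a6b (11518559 to 11530403) stood at 122, 152 and 153 nRPKM with control Ig and 55, 85.3 and 60.1 with anti-Ox40 (-1.10, SE 0.12, adjusted p = 2.8e-05), again clearly apart. Ms4a6c (11469353 to 11487182) fell from 6.95, 9.85 and 10.1 to 2.87, 4.72 and 3.56 (-1.08, SE 0.19, adjusted p = 0.000687). Of 9 tested genes of the family 6 were called, all lower, where 11.6% of all genes were called lower. Ms4a4d (-0.29, adjusted p = 0.0541), Ms4a3 (-0.04, adjusted p = 0.846) and Ms4a1, which encodes the B cell antigen CD20 (-0.31, adjusted p = 0.853), did not pass.

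Cytoskeletal and membrane proteins of the S100, annexin and galectin families were lower in 9 of 17 cases and higher in 2 (median -0.28). This is 64.7% called, against 26.0% of all genes. Without the replicate 3 libraries 2 were lower. The number higher was 1 without control Ig replicate 3, anti-Ox40 replicate 1 or anti-Ox40 replicate 2. S100a6, a calcium-binding protein of memory T cells, stood at 28.6, 42.7 and 43 nRPKM with control Ig and 16.1, 23.9 and 22.5 with anti-Ox40 (-0.84, SE 0.18, adjusted p = 0.00287; 0.0663 without the replicate 3 libraries). S100a10, the partner of annexin A2, stood at 261, 295 and 282 nRPKM with control Ig and 198, 209 and 201 with anti-Ox40, with a narrower spread (-0.46, SE 0.08, adjusted p = 0.000951). Zinc transport genes and metallothioneins had 6 of 12 higher (50%, against 14.4% of all genes) and 0 lower. Of these genes 3 were higher without control Ig replicate 2, control Ig replicate 3 or anti-Ox40 replicate 1. With the nuclear RNA score as a covariate 3 were higher, and 1 without the replicate 3 libraries. Slc39a14, a zinc importer, rose from 7.29, 6.64 and 6.49 to 9.29, 8.09 and 9.12 (0.33, adjusted p = 0.00115; 0.0757 without them). Of 13 chemokine receptors 4 were lower, Cxcr3 and Cxcr6 among them, and 0 higher (30.8% called, against 26.0% of all genes). Cxcr6, a receptor of tissue-homing T cells, fell from 10.3, 9.93 and 10.3 to 6.57, 8.26 and 6.53 (-0.46, SE 0.12, adjusted p = 0.00845).

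Other large increases belonged to none of the lists. Stra6, the retinol transporter (chromosome 9, 58063793 to 58154004), stood at 6.75, 6.93 and 6.93 nRPKM with control Ig and 27.8, 24.7 and 22.6 with anti-Ox40, close to identical in the 3 control Ig libraries and far higher in each anti-Ox40 library (1.72, SE 0.21, adjusted p = 7.33e-05). Enpp2, the lysophosphatidic acid-producing enzyme autotaxin (chromosome 15, 54838901 to 54952789), stood at 4.38, 2.23 and 1.94 nRPKM with control Ig and 13.9, 8.84 and 11.4 with anti-Ox40, separated by group with replicate 1 highest in each (1.72, SE 0.19, adjusted p = 3.06e-05). Timp1, an inhibitor of matrix metalloproteinases, rose from 1.1, 0.596 and 0.568 to 4.77, 2.74 and 2.9 (1.33, SE 0.17, adjusted p = 8.23e-05); with a pseudocount of 0.1 the fold change was 2.07. Ncoa7, a nuclear receptor coactivator, rose from 5.98, 6.62 and 6.3 to 14.7, 17.3 and 12.4 (1.10, adjusted p = 6.81e-05). Among the decreases Cd7, a T cell surface antigen, went from 4.29, 7.75 and 6.19 to 1.25, 3.96 and 1.4 (-1.21, adjusted p = 0.00223; 0.0922 without the replicate 3 libraries). Cmah, the enzyme that makes N-glycolylneuraminic acid, fell from 3.72, 5.9 and 5.34 to 1.55, 2.44 and 1.95 (-1.0, SE 0.12, adjusted p = 7.33e-05). Nsg2 and Tmem71 fell by 1.18 and 1.13 on the log2 scale (adjusted p = 0.000271 and 0.000102).

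For small RNA genes the table does not say whether the reads came from the small RNA or from a host transcript, so no mature sequence is shown. Mir8113 fell from 54.3, 48.4 and 58.3 to 31.7, 33.9 and 39.1 (-0.61, adjusted p = 0.000229) and Mir6913 rose from 0.437, 3.12 and 1.8 to 6.22, 6.54 and 6.2 (1.52, adjusted p = 0.00215). The anti-Ox40 values of Mir6913 were close together and the control Ig values ranged widely. MicroRNA genes are short, so values as low as these rest on few reads.

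The antibody's effect differed between bead doses in a share of genes. Each dose has its own control Ig libraries. The number of called genes was 18 without beads (0.138%), 1254 at low beads (9.59%, with 6.15% higher and 3.44% lower) and 3397 at high beads. Genes called in the same direction at both low and high beads numbered 606, which is 17.8% of the calls at high and 48.3% of those at low beads, and 16 were called in opposite directions. The difference of the effect between high and low beads was itself called for 414 genes (3.17%), 192 higher (1.47%) and 222 lower (1.70%), and that between high and no beads for 1451 (11.1%), 837 higher (6.40%) and 614 lower (4.70%). Of the 414 genes 314 were called at high beads only, 54 at low beads only, 25 at both in the same direction, 16 at both in opposite directions and 5 at neither. These counts moved with the libraries and settings: at high beads the 414 became 653, 166 and 102 without control Ig replicates 1, 2 and 3 and 108 without anti-Ox40 replicate 1. At low beads they became 219, 1243 and 149 without control Ig replicates 1, 2 and 3, and 182 and 137 without anti-Ox40 replicates 1 and 3. They were 3 with the lung epithelium score as a covariate and 3 without the replicate 3 libraries. The 1451 became 732 and 630 without control Ig replicates 2 and 3 at high beads, 602 without anti-Ox40 replicate 1 at high beads, 957, 939 and 879 without control Ig replicates 1, 2 and 3 of the cultures without beads, and 7 without the replicate 3 libraries. Lung epithelium markers stood at a score of 0.273 to 1.41 in control Ig and 1.63 to 3.12 in anti-Ox40 at low beads, where these ranges do not overlap and 6 of the 7 markers were called higher.

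Genes that rose more at high than at low beads included Bcl2l14, with an effect of 0.24 at low and 1.68 at high beads (difference 1.43, adjusted p = 1.23e-05), and Btla, with -0.01 and 1.25 (difference 1.26, adjusted p = 0.0015). Plk2 (difference 1.14, adjusted p = 0.00789) and Enpp2 (difference 1.26, adjusted p = 0.0217) did so as well. Batf3 rose at both doses, by 1.24 at low and 2.12 at high beads (difference 0.88, adjusted p = 0.0299). Among genes that fell more at high beads, Klf2 had effects of -0.18 and -1.11 (difference -0.93, adjusted p = 0.0177), Stat4 -0.12 and -0.70 (difference -0.57, adjusted p = 0.00704) and Cd3e -0.00078 and -0.35 (difference -0.35, adjusted p = 0.0254). By contrast the effect on Il9 was 2.48 at low and 2.79 at high beads (difference 0.31, SE 0.58, adjusted p = 0.818) and that on Irf4 0.66 and 0.64 (difference -0.02, SE 0.17, adjusted p = 0.969). These differences did not pass the test.

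Glycolytic genes and most hypoxia genes with a called difference had the greater antibody effect at low beads. Of 21 glycolysis genes 16 were higher at low beads against 4 at high beads, and in 10 the difference of effects was called, each with the smaller effect at high beads. Slc16a3, the lactate exporter, had effects of 1.11 at low and 0.14 at high beads (difference -0.97, SE 0.08, adjusted p = 3.25e-05). At high beads it stood at 131, 128 and 131 nRPKM with control Ig and 141, 137 and 152 with anti-Ox40, a difference that did not pass (adjusted p = 0.105) although the groups did not overlap. Mgarp, a mitochondrial protein induced by hypoxia, had effects of 1.18 and 0.06 (difference -1.11, adjusted p = 0.000329), and Slc2a1 0.64 and 0.18 (difference -0.47, adjusted p = 0.0121). Of 18 hypoxia-inducible factor targets 12 were higher at low and 4 at high beads, with 8 differences called. In 7 of these the effect was smaller at high beads, while P4ha2 went the other way, with effects of 0.27 at low and 0.97 at high beads (difference 0.71, adjusted p = 0.008). Over all genes 3 differences were called with the lung epithelium score, which was higher with anti-Ox40 at low beads, as a covariate. DNA replication genes were higher in 15 of 32 cases at low and 0 at high beads, but the difference was called in 1. Scin, an actin-severing protein, had an effect of 1.14 without beads and 0.05 at high beads (difference -1.08, adjusted p = 0.00858).

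**Figure D5:**
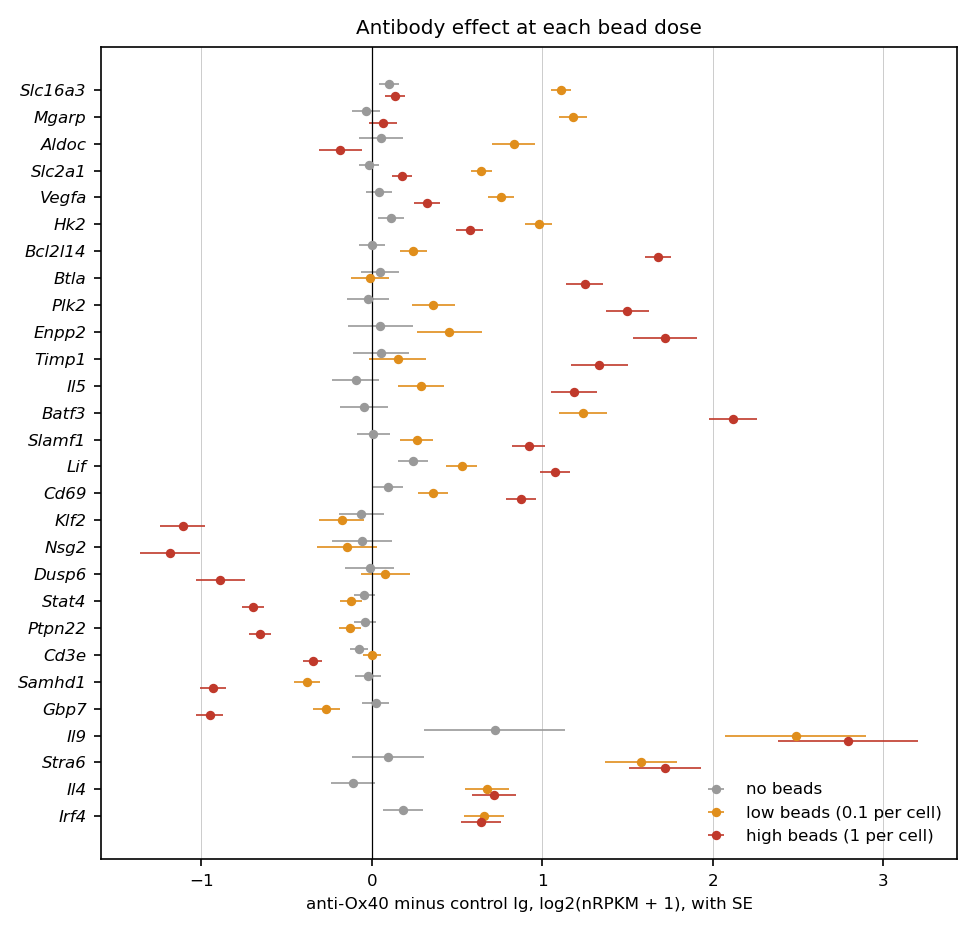
Points are the antibody effect (log2) with its SE for 28 genes at 0.1 (orange) or 1 (red) bead per cell or with none (grey), all from the same model. The top 6 genes, from Slc16a3 to Hk2, have their largest effect at low beads, the next 18 at high beads, while Il9, Stra6, Il4 and Irf4 have effects at low and high beads whose SE bars overlap.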

How the data were processed

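RNA-seq of 18 libraries was deposited as 1 table of nRPKM, the authors' normalised RPKM, with 36528 entries. GSNAP and GRCm38 are named per the submitters' processing notes. How reads were counted, on which annotation, and how libraries were scaled to each other is not given in the sources. Per the labels' protocols, libraries were made from 100 to 500 ng of RNA with 10 PCR cycles.

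Genes with an nRPKM of at least 1 in 3 libraries (13075) were tested on log2(nRPKM + 1) with limma 3.58.1 in R 4.3.3, with a variance trend and all 6 groups in 1 model (12 residual degrees of freedom). Reads per nRPKM were estimated from the steps between low values. Coordinates matched 12009 genes (92.0%), and 147 of 186 named genes had a RefSeq promoter. In data simulated for high beads, 79.0% of 100 genes changed by 0.5 and 95.0% of 100 changed by 1 (log2) were recovered among 13075 genes. Another 8 genes were called that had not been changed. The simulation changed far fewer genes than the 3397 called here and drew the noise of each gene independently. Its rates therefore need not hold for these data.

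Named genes were 4 genes always named (Tnfrsf4, Tnfsf4, Il2ra, Cd69), the 15 largest separated increases and 15 decreases, up to 5 called members of each list with the smallest adjusted p, 5 small RNA genes, and the 8 largest differences in each direction for each dose test. The genes and lists were chosen with earlier results of these data known. Entries without a symbol (6) or with a symbol turned into a date (27) were not named. Alternatives covered the pseudocount, filter, scaling (quantile, median or an unweighted trimmed mean of M values), variance model, marker scores as covariates and each library left out.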

Additional observations from a re-analysis of the deposited data

Results flagged for a closer look

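The antibody effect of these genes differed between bead doses by the test of the difference itself (limma, interaction term, Benjamini-Hochberg adjusted p under 0.05 over 13075 genes). Each value is the effect at high beads minus that at the other dose, on the log2 scale, so a negative value marks an effect that was lower at high beads. Most of these genes were selected for naming by their effect at high beads, and the causes of the differences were not tested.

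Against low beads the effect was higher for Bcl2l14 (1.43), Enpp2 (1.26), Btla (1.26), Timp1 (1.18), Plk2 (1.14) and Il5 (0.90). Higher effects at high than at low beads were also found for Batf3 (0.88), Tnip3 (0.80), Ncoa7 (0.78), P4ha2 (0.71), Nr4a3 (0.68) and Slamf1 (0.66). To these were added Lif (0.55), Tnfaip3 (0.53), Cd69 (0.52), Stat5a (0.46), Chuk (0.41) and Slc39a10 (0.41). The smallest such differences were those of Slc38a2 (0.39) and Mdm2 (0.23).

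Against low beads the effect was lower at high beads for Mgarp (-1.11), Nsg2 (-1.04), Aldoc (-1.02), Slc16a3 (-0.97), Dusp6 (-0.97) and Klf2 (-0.93). The next lower effects were those of Pf4 (-0.92), F2rl2 (-0.91), Phf11b (-0.86), Tmem71 (-0.84), Bcl2a1b (-0.81) and Ms4a6b (-0.81). Smaller negative differences from low beads were found for Wscd2 (-0.70), Entpd1 (-0.70), Gbp7 (-0.68), Pyhin1 (-0.66), Stat4 (-0.57) and Samhd1 (-0.55). The list went on with Ptpn22 (-0.53), Crip1 (-0.49), Cd3g (-0.49), Cd96 (-0.48), Slc2a1 (-0.47) and E2f2 (-0.46). After these came Bcl6 (-0.46), Vegfa (-0.44), Tbx21 (-0.39), Cd3d (-0.35), Anxa6 (-0.35) and Cd3e (-0.35). The smallest were those of Bak1 (-0.33), Itgal (-0.33) and Il16 (-0.30).

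Against no beads the effect was higher for Batf3 (2.16), Il9 (2.07), Il21 (1.74), Bcl2l14 (1.68), Enpp2 (1.67) and Stra6 (1.63). It was higher too for Plk2 (1.52) and Atf3 (1.37). It was lower than without beads for Ms4a4b (-1.61), Ms4a6c (-1.16), Tmem71 (-1.14), Wscd2 (-1.13), Nsg2 (-1.12) and Iigp1 (-1.11). Lower values against no beads were also those of Scin (-1.08) and Cmah (-1.08). With the lung epithelium score as a covariate 3 genes differed between high and low beads, and without the replicate 3 libraries 3.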

How the results depend on the processing

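No paired analysis was possible because the labels give no replicate number, animal or batch shared between groups, and the replicate numbers used here follow deposition order and pair no libraries. The 3397 genes called at high beads were 2772 to 4187 under the other planned settings that kept all 6 libraries, from the nuclear RNA score as a covariate to array weights, and 2065 to 3363 without each library. Leaving out the library of each group with the highest B cell markers, an alternative chosen after seeing the data, gave 1387, of which 1351 were among the 3397. The 414 genes whose effect differed between high and low beads were 263 with no filter on low values, 152 when fitted on those 4 groups alone, 1014 with the nuclear RNA score, 3 with the lung epithelium score, 1559 with array weights, 102 to 1243 without each library and 3 without the libraries highest in B cell markers. Centring on the median moved their split from 192 higher and 222 lower to 151 and 289. The 1451 genes that differed between high and no beads were 966 with no filter, 562 with the nuclear RNA score, 2403 with array weights, 602 to 1743 without each library and 7 without the libraries highest in B cell markers. The causes were not tested. The part of the smaller number of libraries or larger number of genes that a setting itself brings was not tested either. Of 186 named genes 181 were called at high beads, 160 of these kept the call without each library, 158 under every other planned setting and 155 under all planned settings. No named gene called at high beads changed direction under any setting run, while Scin and Mgarp, which were not called there (0.05 and 0.06), had effects between -0.07 and -0.01 in 3 settings. A gene of 1 kb with an nRPKM of 1 had an estimated 32.4 to 43.8 reads at high beads. For a gene of that length values under 1 rest on fewer reads, which limits their precision. The control Ig values of Il2 and Il5 were under 1. In short genes such as Mir6913 somewhat higher values rest on few reads.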
